A study of Mus musculus with 6 samples.

Results

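The suprabasal keratins are the intermediate filament proteins that keratinocytes make once they leave the basal layer of the epidermis. The group described here holds 8 genes, Krt1, Krt2, Krt10, Krt23, Krt77, Krt78, Krt79 and Krt80, taken by gene symbol from the platform annotation. Each has 1 probe set, so the group covers 8 of 45037 probe sets and 8 of 18193 named genes on the arrays. Of these, 7 had enough signal to be tested among 11387 genes, and Krt2 did not. Back skin was taken from 3 Get1 -/- and 3 Get1 +/+ mouse embryos at e18.5 (e18 in the sample labels), 1 array per animal. Get1 is an earlier name of Grhl3, a grainyhead-like transcription factor of surface epithelia. The allele behind the -/- genotype, the strain, the sex and the litters of the animals are not given in the sources used here, so separate animals are named but shared litters are not recorded. Values are MAS5 signals in arbitrary units, scaled by the authors to the same trimmed mean on every array, and the number of arrays limits their precision.

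Keratin filaments are built from pairs of 1 type I and 1 type II keratin. Basal keratinocytes use Krt5 with Krt14, and cells that commit to differentiation switch to Krt1 (type II) and Krt10 (type I), which then form most of the protein of the spinous and granular layers. Krt2 is a type II keratin of the uppermost living layers and also pairs with Krt10. Krt77 is a type II keratin of the mouse suprabasal epidermis, encoded next to Krt1. Krt78 and Krt80 are type II keratins of differentiating epithelia, Krt79 is a type II keratin known from the mouse hair follicle infundibulum and sebaceous duct as well as the epidermis, and Krt23 is a type I keratin.

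Of the suprabasal epidermis markers Krt1, Krt10, Krt2 and Krt77, only Krt1 and Krt10 had high signals on all 6 arrays. Krt2 read 25.4 to 50.1, and Krt77 read 79.6 to 113 in Get1 -/- and 327 to 696 in Get1 +/+ skin. Basal Krt5 and Krt14, dermal collagen (Col1a1, Col3a1) and muscle genes (Acta1, Myh8) had high signals on all 6 arrays too. RNA of epidermis, dermis and muscle was thus present on every array, and in such bulk RNA fewer cells of a type and less RNA per cell cannot be told apart. The Grhl3 probe set read 246, 413 and 380 in Get1 -/- skin, against 478, 934 and 670 in Get1 +/+ skin. The log2 change was -0.98 ± 0.28 (SE) with an adjusted p of 0.497, and whether this probe set lies in a deleted part of the gene is not stated. Correlations between arrays ran from 0.916 to 0.971 over the kept probe sets. The 3′ beta-actin control signal split the arrays into 3 high ones (Get1 -/- replicate 1 and Get1 +/+ replicates 1 and 2, 30902 to 31441) and 3 lower ones (22558 to 26889). Differences within each set are given below where they matter. Get1 -/- replicate 1 is the only Get1 -/- array of the high set. Get1 +/+ replicate 3 is the only Get1 +/+ array of the lower set.

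Krt77 fell in Get1 -/- skin and was the only suprabasal keratin to pass the test, with an adjusted p near the threshold that missed it when genes of low signal were not filtered out (limma adjusted p = 0.0714). Its signal was 79.6, 113 and 84.2 in the Get1 -/- mice, against 327, 696 and 612 in the Get1 +/+ mice. All Get1 -/- values lay below all Get1 +/+ values, and the lowest Get1 +/+ signal was 2.88 times the highest Get1 -/- signal. The means were 92.4 ± 18.3 in Get1 -/- and 545 ± 194 in Get1 +/+ skin (SD, n = 3 each). The log2 change was -2.51 ± 0.31 (SE), with a 95% interval of -3.21 to -1.80 and a limma adjusted p of 0.0404 over all genes. On the linear scale this is 5.68-fold lower, with an interval of 3.49 to 9.23. The fold is set against Get1 -/- signals that all lie under the filter of 137, and with 37.6 added before log2 the change was -2.11. Among all genes tested 5 passed (0.0439%), 3 higher and 2 lower (0.0176% for lower), and Krt77 had the fifth smallest p of the 11387. With quantile normalization the split was 3 higher and 1 lower.

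The Krt77 call was close to the threshold and did not hold in every setting. The adjusted p was 0.117, 0.078 and 0.113 without Get1 -/- replicates 1, 2 and 3, and 0.14 and 0.372 without Get1 +/+ replicates 2 and 3. It was 0.00817 without Get1 +/+ replicate 1. It was 0.0737 with quantile normalization and 0.0976 with the actin control split as a factor, a setting added after seeing the data. The number of genes called was 122 without Get1 +/+ replicate 1 and 3 without Get1 +/+ replicate 2 or 3. In the table of 22519 probe sets, where more features are adjusted for, Krt77 had an adjusted p of 0.0822 and 6 probe sets passed (0.0266%). The size of the difference was steadier, between -2.84 and -2.29 with any 1 array left out. Within the arrays of high actin control it was -2.58 and within the others -2.65, each from 3 arrays. In the first set Get1 -/- replicate 1 stood alone for its genotype, and in the second Get1 +/+ replicate 3 did. The gene passed the filter through its Get1 +/+ values, and a stricter filter removed it.

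**Figure D1:**
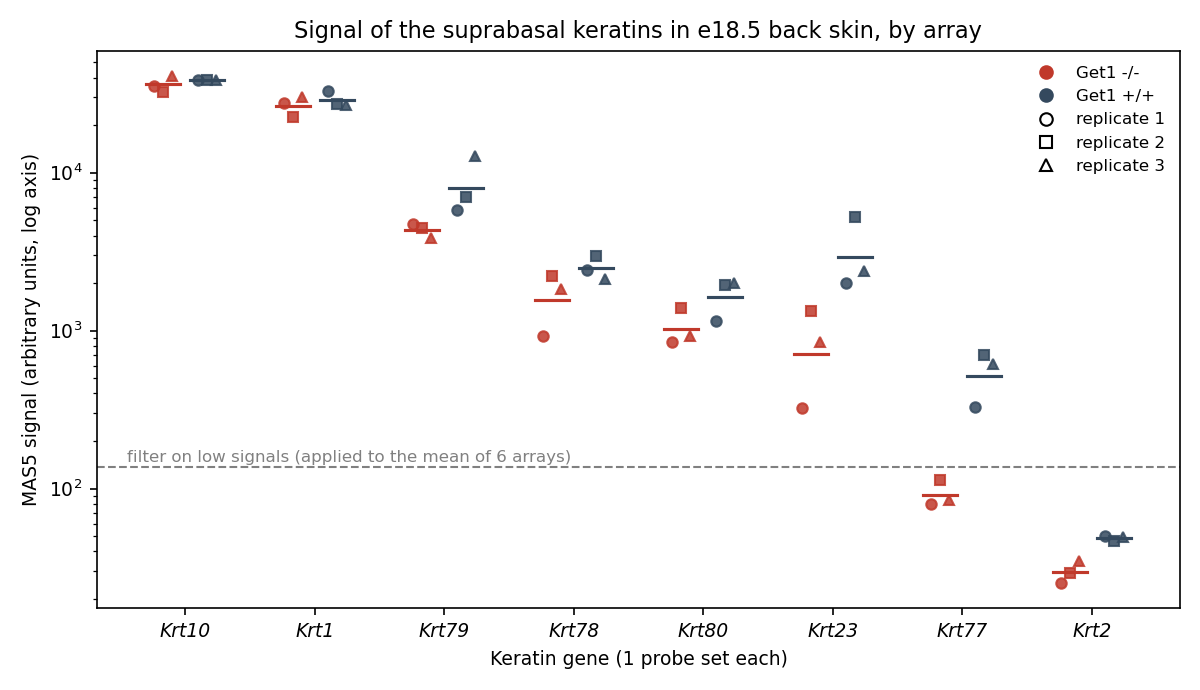
MAS5 signal (log axis, arbitrary units) of the 8 keratins on each array, Get1 -/- in red at the left of each pair and Get1 +/+ in dark blue at the right, with marker shape for the replicate number and a bar for the geometric mean. Krt77 (79.6 to 113 in Get1 -/-, 327 to 696 in Get1 +/+) separates widely while Krt10 and Krt1 overlap, and signals of different probe sets are not on a common scale.

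The 250 bases before the RefSeq start of the gene (build GRCm38.p6, minus strand, 5′ to 3′) are shown for Krt77, for Krt10 as the abundant keratin that did not pass, and for Krt23, whose difference came next in size. Capitals mark matches to TATANA, a pattern for the TATA box. They are given so that the keratin that passed the test can be set beside one with a difference near 0 and one that missed the threshold.
Krt77, chr15:101869706-101869955: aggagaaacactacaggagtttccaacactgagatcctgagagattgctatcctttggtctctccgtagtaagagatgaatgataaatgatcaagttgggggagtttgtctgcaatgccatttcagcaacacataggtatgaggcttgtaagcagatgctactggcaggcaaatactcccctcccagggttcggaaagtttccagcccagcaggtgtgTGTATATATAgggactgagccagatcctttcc
Krt10, chr11:99389365-99389614: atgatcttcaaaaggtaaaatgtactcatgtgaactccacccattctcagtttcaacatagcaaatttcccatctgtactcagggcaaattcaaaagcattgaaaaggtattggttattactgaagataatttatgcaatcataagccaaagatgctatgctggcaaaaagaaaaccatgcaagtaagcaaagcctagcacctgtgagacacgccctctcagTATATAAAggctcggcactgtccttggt
Krt23, chr11:99493121-99493370: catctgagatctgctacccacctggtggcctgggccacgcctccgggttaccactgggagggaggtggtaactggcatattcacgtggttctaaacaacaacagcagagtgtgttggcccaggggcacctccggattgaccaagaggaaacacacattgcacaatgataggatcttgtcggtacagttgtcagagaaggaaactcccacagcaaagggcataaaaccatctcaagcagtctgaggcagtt

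RefSeq promoters were at hand for 6 of the 8 members. The grainyhead motif AACCGGTT, searched on both strands, had 0 matches in these 6 windows and matches in 0.116% of 32851 promoters of the same length. The looser form AACCNGTT, which contains the first, also had 0 matches and occurs in 1.79% of them. TATANA matched in Krt77 (23 to 32 bases before the start), Krt10 (21 to 28) and Krt2 (24 to 29), and in 22.6% of all windows, where TATATA reads the same on both strands. The AP-1 motif TGANTCA had 0 matches in the members and occurs in 6.75% of all windows. TATANA and TGANTCA were added after the promoters had been read. A missing match says only that these letters are not in this window.

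For the abundant keratins no difference beyond the error was found. Krt10, the main type I keratin of the suprabasal layers, read 35595, 32618 and 40957 in Get1 -/- skin, against 38916, 38931 and 38570 in Get1 +/+ skin. The Get1 -/- arrays lay on both sides of the Get1 +/+ arrays. The log2 change was -0.10 ± 0.10 (SE), with a 95% interval of -0.33 to 0.13 (adjusted p = 0.844). Krt1, its type II partner, read 27640, 22401 and 30319 in Get1 -/- skin, against 32895, 27233 and 26988 in Get1 +/+ skin. These ranges overlapped too, and the log2 change was -0.12 ± 0.14 (SE), interval -0.43 to 0.18 (adjusted p = 0.857). The lower bounds correspond to 1.26-fold and 1.34-fold lower for Krt10 and Krt1. Without Get1 -/- replicate 2, the array with the lowest signal of both genes, the Krt1 difference was 0.0016 and that of Krt10 was -0.023.

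Krt10 ranked between the first and the fourth brightest of 45037 probe sets on every array, and Krt1 between 15 and 95. The SD of log2 Krt10 was 0.166 in Get1 -/- and 0.0076 in Get1 +/+ skin. Whether probe sets this bright respond in proportion to transcript level was not tested, since the deposited table holds no saturation flags.

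Krt2, the type II keratin of the upper layers, was close to the floor of the arrays. Its signal was 25.4, 29.1 and 34.6 in Get1 -/- skin, against 50.1, 46.7 and 49.2 in Get1 +/+ skin. The genotypes did not overlap, as in 6.49% of all probe sets with lower Get1 -/- values. These signals lie around the 25th percentile of all deposited values (37.6), below the filter, so Krt2 was not tested among the kept genes. Without the filter its log2 change was -0.72 ± 0.50 (SE, adjusted p = 0.868), with an interval that includes 0, in the fit of all probe sets. In the fit of 1 probe set per gene without the filter the adjusted p was 0.759.

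Krt23 had the next largest difference after Krt77, and missed the threshold. The type I keratin read 324, 1325 and 849 in Get1 -/- skin, against 2015, 5211 and 2377 in Get1 +/+ skin. The genotypes did not overlap, but both groups were wide, with a highest signal 4.09 times the lowest in Get1 -/- and 2.59 times the lowest in Get1 +/+ skin. The log2 change was -2.03 ± 0.50 (SE), interval -3.16 to -0.91 (adjusted p = 0.398). Get1 -/- replicate 1 and Get1 +/+ replicate 2 are the lowest and the highest array, and the difference was -1.46 without the first and -1.62 without the second. With the replicate number of the titles as a block the adjusted p was 0.0247, and whether these numbers pair the animals is not given. The log2 difference was -3.32 within the arrays of high actin control and -1.16 within the others. The first value rests on Get1 -/- replicate 1 alone for its genotype, and the second on Get1 +/+ replicate 3.

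Krt79, the type II keratin known also from the follicle infundibulum, read 4714, 4467 and 3846 in Get1 -/- skin, against 5779, 7065 and 12771 in Get1 +/+ skin. The genotypes did not overlap, and the log2 change was -0.90 ± 0.26 (SE), interval -1.48 to -0.32 (adjusted p = 0.497). Get1 +/+ replicate 3 stood above all others, and without it the difference was -0.56. It was -0.44 within the arrays of high actin control and -1.62 within the others, where Get1 +/+ replicate 3 is the only Get1 +/+ array. The same array had the highest signals of inner root sheath genes of the hair follicle. Of that list 8 of 10 were tested, all 8 had lower estimates in Get1 -/- skin, and genotypes overlapped in all 8. At an unadjusted p under 0.05 there were 4, all lower, and 0 passed (limma). Over all genes tested, 48.7% had a lower estimate and 4.29% were lower at that level. The summed signal of the 9 listed genes on the array was 10561, 10479 and 5163 in Get1 -/- skin, against 7160, 16735 and 36193 in Get1 +/+ skin, the same order of arrays within each genotype as for Krt79. No gene of the list was at 0, and the part of follicle RNA in the Krt79 difference was not tested. Markers of the infundibulum and sebaceous duct summed to 8807 to 12752 in Get1 -/- and 9095 to 14194 in Get1 +/+ skin, with 6 of 8 tested, 3 of them lower, 0 called and 0 of the list at 0.

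Krt78 and Krt80, type II keratins of differentiating epithelium, had smaller differences with overlapping genotypes. Krt78 read 928, 2221 and 1847 in Get1 -/- skin, against 2421, 2974 and 2133 in Get1 +/+ skin. Its log2 change was -0.67 ± 0.30 (SE, adjusted p = 0.608). Get1 -/- replicate 1 was by far the lowest array, and the difference was -0.30 without it. Within the arrays of high actin control, where Get1 -/- replicate 1 is the only Get1 -/- array, the difference was -1.53. Within the others it was -0.074. Krt80 read 842, 1394 and 931 in Get1 -/- skin, against 1143, 1944 and 2001 in Get1 +/+ skin, and its log2 change was -0.67 ± 0.26 (SE, adjusted p = 0.586). Get1 -/- replicate 2 lay above Get1 +/+ replicate 1 for Krt80.

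All 7 tested members had a negative estimate, where 48.7% of all genes did. The median log2 change was -0.67 over the 7 members and 0.0076 over the 11387 genes. Genotypes did not overlap in 3 of the 7 (Krt77, Krt23 and Krt79), against a background of 6.78% of genes with lower Get1 -/- values. At an unadjusted p under 0.05 there were 5 members lower, where 4.29% of all genes were. These counts describe genes chosen with earlier results of these data known. The median within-genotype SD of the members was 0.434 on the log2 scale, against 0.23 over all genes tested, with 0.117 for Krt10 as the lowest and 0.899 for Krt23 as the highest.

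**Figure D2:**
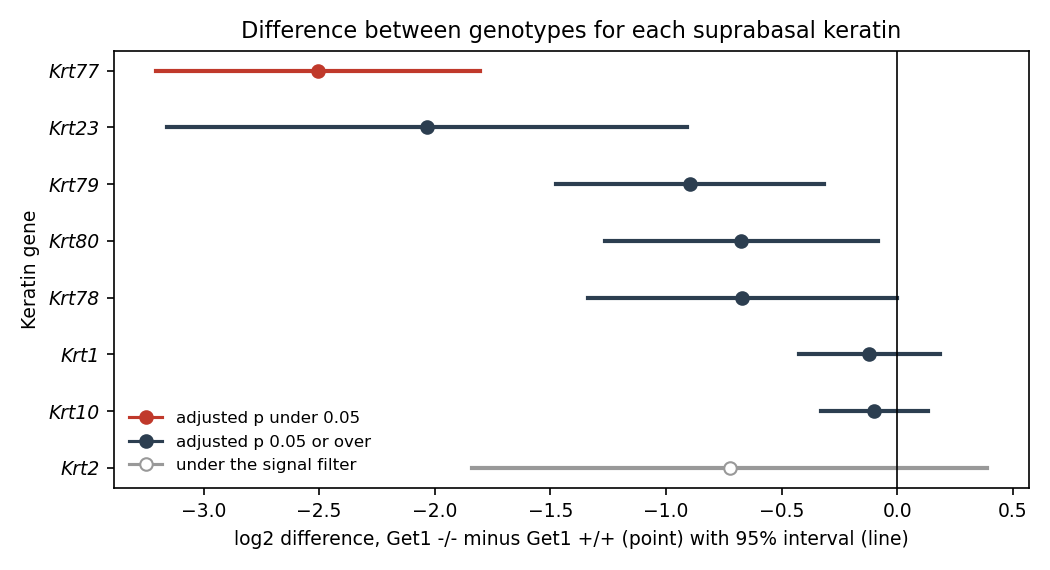
Log2 difference, Get1 -/- minus Get1 +/+ (horizontal axis), for each keratin, with the point as the estimate and the line as its 95% interval. Krt77 (-2.51) alone passed, and the intervals of Krt10, Krt1 and the untested Krt2 include 0.

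The contrast of minor with abundant keratins was made within arrays, as the log2 signal of each minor keratin minus the mean log2 signal of Krt1 and Krt10, which removes any factor that all 3 share. The Krt77 ratio was -8.62, -7.90 and -8.71 in Get1 -/- skin, against -6.78, -5.55 and -5.72 in Get1 +/+ skin. The genotypes stayed apart, with a difference of -2.39 ± 0.46 (SE) on the log2 scale. The Krt23 ratio differed by -1.92 ± 0.79, also without overlap. The Krt2 ratio, from signals under the filter, differed by -0.61 ± 0.13 without overlap, but by -0.25 (exact permutation p = 0.2) with 37.6 added before log2, so no difference is read from it. The ratios of Krt79 (-0.79 ± 0.42), Krt80 (-0.56 ± 0.44) and Krt78 (-0.56 ± 0.45) overlapped between genotypes. The share of all genes whose ratio separates the genotypes was not counted. For signals it was 6.78% of genes tested with lower Get1 -/- values. An exact permutation test (two-sided) gave p = 0.1 for Krt77, Krt23 and Krt2, the smallest that 3 against 3 arrays allow, 0.2 for Krt79 and Krt80 and 0.3 for Krt78. Adjusted over the 6 ratios the values ran from 0.2 to 0.3. Such a ratio does not show which side moved, and it rests on the very bright Krt1 and Krt10 probe sets, whose proportional response was not tested.

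The same centring was applied to the whole table. With every array centred on Krt1 and Krt10 the limma log2 change of Krt77 was -2.39 (adjusted p = 0.00799), and the median of all genes moved by 0.11. Under that centring 12 genes passed, 8 higher and 4 lower. Krt23 was then at -1.92 (adjusted p = 0.209), and none of Krt78, Krt79 and Krt80 passed (0.597, 0.363 and 0.594).

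**Figure D3:**
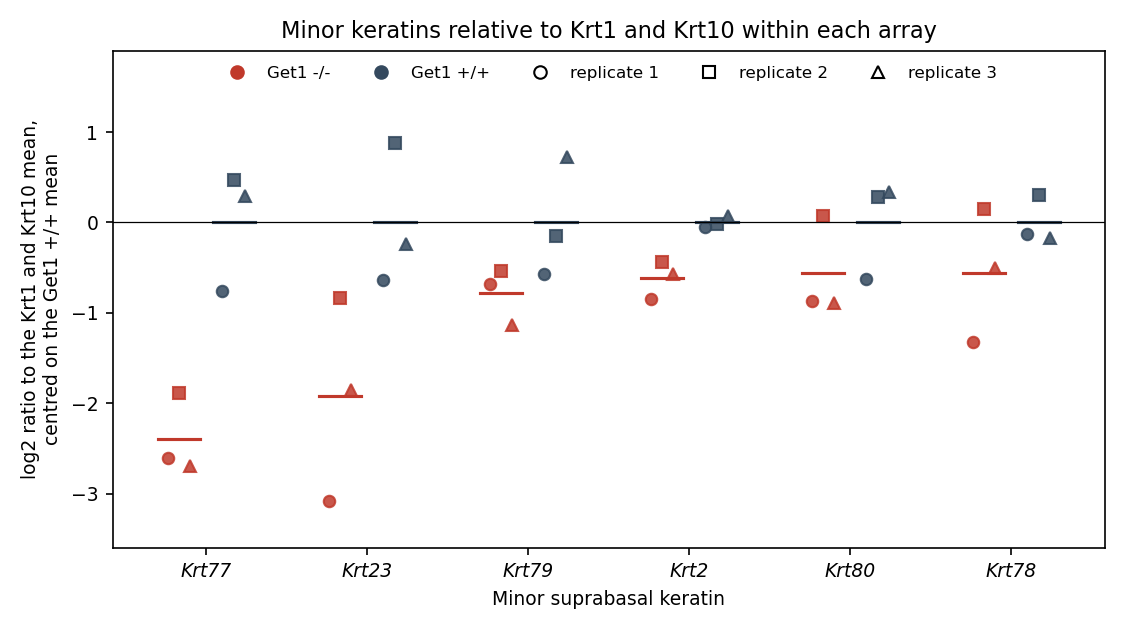
Log2 ratio of each minor keratin to the mean of Krt1 and Krt10 on the same array (vertical axis), centred on the Get1 +/+ mean, with Get1 -/- in red at the left of each pair, Get1 +/+ in dark blue at the right, and a bar for the mean. The Get1 -/- ratios of Krt77, Krt23 and Krt2 all lie below the Get1 +/+ ratios, and those of Krt79, Krt80 and Krt78 overlap.

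Keratins next to the members on the chromosomes had differences of other sizes and signs. In the annotation order of chromosome 15, Krt77 lies between Krt1 (-0.12) and Krt76, which had no kept probe set, and Krt79 and Krt78 follow after Krt4. On chromosome 11, Krt10 (-0.10) lies between Krt28, an inner root sheath keratin (-0.93 ± 0.46), and Krt12, a keratin known from the cornea (3.20 ± 0.51, adjusted p = 0.112). Krt20 and Krt39, next to Krt23, had no tested probe set. Of 28 keratins tested in both clusters 22 had a lower and 6 a higher estimate in Get1 -/- skin, with a median of -0.57. Of these 2 passed, Krt77 and Krt6b. Over all genes tested, 48.7% had a lower estimate and 0.0439% passed. Among the 21 that are not members 15 were lower and 6 higher, with a median of -0.35.

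**Figure D4:**
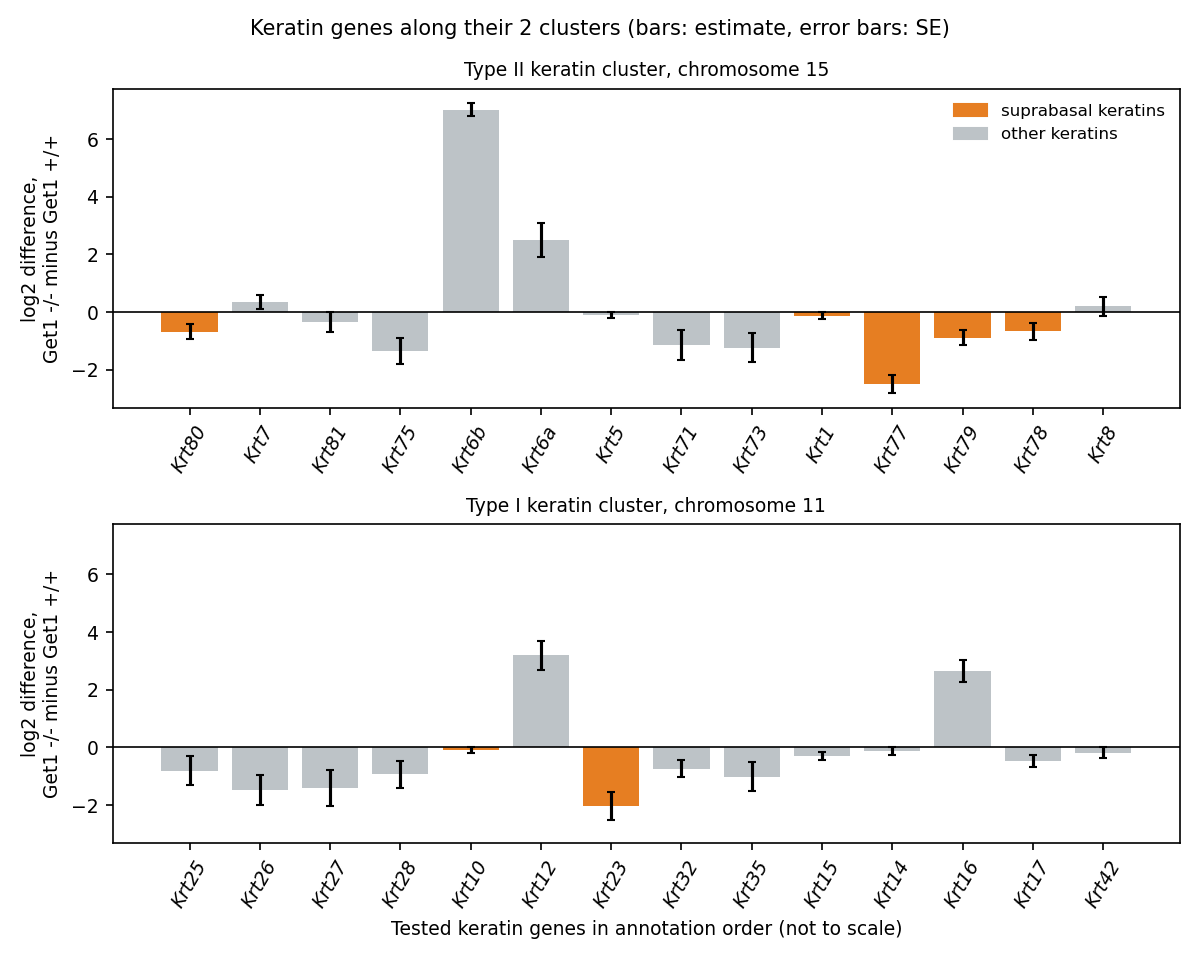
Log2 difference, Get1 -/- minus Get1 +/+, of the tested keratins in annotation order along chromosome 15 (top) and chromosome 11 (bottom), with bars for the estimate, error bars for the SE and the suprabasal keratins in orange. Krt77 (-2.51) stands beside Krt1 (-0.12), and Krt23 (-2.03) and Krt10 (-0.10) lie on either side of Krt12 (3.20).

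Keratins of other layers gave different values. The basal keratins Krt5, Krt14 and Krt15 had log2 changes of -0.12, -0.12 and -0.29, with 0 of 3 passing and a median of -0.12. Of all 11387 genes tested 0.0439% passed, so a count of 0 in lists this short is not a result about them. Among the stress keratins, which the wounded epidermis makes, Krt6b rose (7.01 ± 0.22, adjusted p = 1.11e-06). Its signal was 21364, 20854 and 14024 in Get1 -/- skin, against 121, 186 and 130 in Get1 +/+ skin. Its type I partner Krt16 (2.65 ± 0.38), Krt6a (2.48 ± 0.59) and Krt17 (-0.47 ± 0.20) did not pass, and the median of the 4 was 2.57. The list of simple and internal epithelia has 9 keratins and also holds Krt12 of the cornea. Only Krt12 (3.20 ± 0.51), Krt7 (0.34 ± 0.24) and Krt8 (0.20 ± 0.32) had kept probe sets, with 0 passing and a median of 0.34. The inner root sheath list had a median of -1.19, and its smallest p values were those of Krt75 (-1.36 ± 0.44), Krt26 (-1.49 ± 0.52), Krt73 (-1.23 ± 0.50) and Krt27 (-1.41 ± 0.63).

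Genes that work with suprabasal keratins mostly had negative estimates, and 0 of them passed (limma). Over all genes tested, 48.7% had a negative estimate and 4.29% were lower at an unadjusted p under 0.05. In the lists of this paragraph every gene at that level was lower. Of 16 genes of desmosomes and filament anchoring 13 were tested and 11 were lower, with a median of -0.21 and 3 genes at an unadjusted p under 0.05. The 4 with the smallest p were periplakin Ppl, a cytolinker of keratin filaments (-0.86 ± 0.18), plakoglobin Jup (-0.48 ± 0.16), envoplakin Evpl (-0.38 ± 0.15) and, just short of that level, corneodesmosin Cdsn (-0.67 ± 0.30). The list of filament bundling and the early cornified envelope has 16 symbols, of which Lor and Loricrin name the same gene. Of this list 14 genes were tested and 13 were lower, with a median of -0.50 and 7 genes at an unadjusted p under 0.05. The 4 with the smallest p were Krtdap (-0.45 ± 0.12), transglutaminase Tgm1 (-0.89 ± 0.30), suprabasin Sbsn (-0.49 ± 0.17) and dermokine Dmkn (-0.32 ± 0.11). Their summed signal was 120825, 181463 and 177707 in Get1 -/- skin, against 193711, 224541 and 202304 in Get1 +/+ skin. Get1 -/- replicate 1 was the lowest and Get1 +/+ replicate 2 the highest array in this sum, as for Krt23 and Krt78.

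Of 22 transcription factors and Notch pathway genes of suprabasal commitment 20 were tested and 17 were lower, with a median of -0.30. At an unadjusted p under 0.05 there were 7, all lower. Over all genes tested, 48.7% were lower and 4.29% were lower at that level. After adjustment 0 of the list passed (limma). Hopx, a homeodomain protein of differentiating epidermis, came nearest (-1.38 ± 0.21, adjusted p = 0.0986). Its signal was 2073, 3258 and 2457 in Get1 -/- skin, against 5533, 8655 and 6132 in Get1 +/+ skin, without overlap. Pou2f3 (-0.80 ± 0.21), Cebpb (-0.48 ± 0.13) and Prdm1 (-0.40 ± 0.15) followed. Notch1, the receptor known to promote Krt1 and Krt10 expression, was at -0.025 ± 0.19. Among the other Notch pathway genes listed, Notch2 was at -0.235 ± 0.14 without overlap and Hes1 at -0.21 ± 0.21. Notch3 was at 0.033 ± 0.19 and Rbpj at 0.14 ± 0.16.

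The 6 genes whose centred log2 profile over the 6 arrays lay nearest to that of Krt77, by root mean square difference, were Slc46a2 (0.406), the zinc transporter Slc39a2 (0.475), the glutathione transferase Gsta2 (0.49), gasdermin A Gsdma (0.51), the carnitine synthesis enzyme Bbox1 (0.516) and the fucosyltransferase Fut2 (0.54). Slc46a2 read 204, 553 and 389 in Get1 -/- skin, against 1306, 1910 and 1516 in Get1 +/+ skin. In all 6 the genotypes did not overlap, as in 6.78% of all genes tested with lower Get1 -/- values. Choosing genes by likeness to Krt77, whose genotypes lie apart, largely fixes this count, so nothing is read from it. Of the 6, Gsta2 passed the test (-1.85 ± 0.18, limma adjusted p = 0.00756), where 0.0439% of all genes tested passed. The others had adjusted p values between 0.0986 and 0.308. The list is a description of likeness over 6 arrays.

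**Figure D5:**
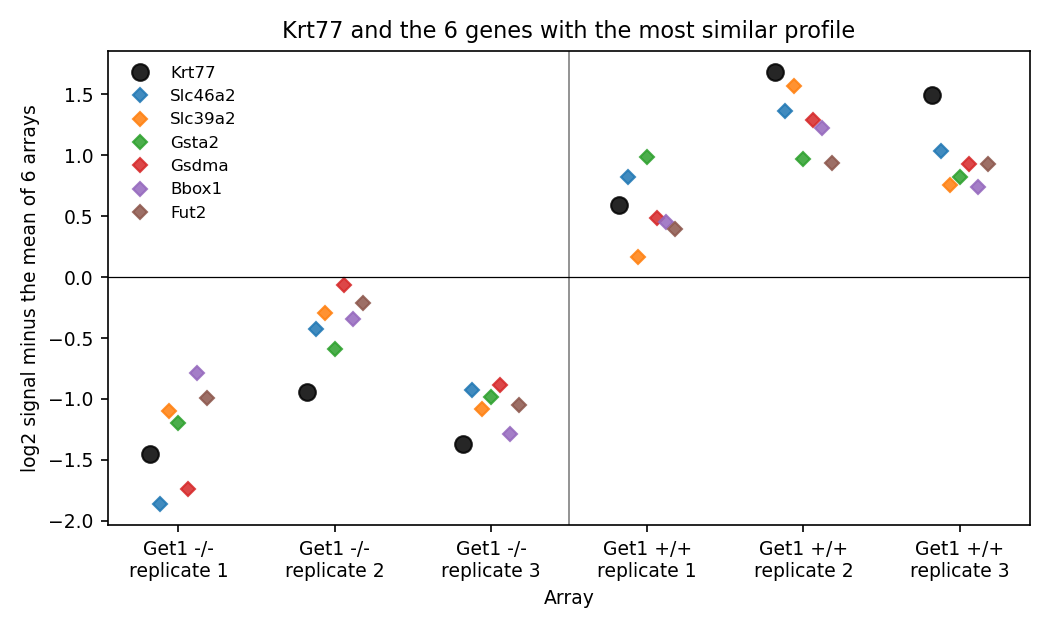
Log2 signal minus the mean over 6 arrays (vertical axis) of Krt77 (black circles) and the 6 genes nearest to it (coloured diamonds) on each array, Get1 -/- at the left and Get1 +/+ at the right. All 7 genes are below 0 on the Get1 -/- arrays and above 0 on the Get1 +/+ arrays, and Get1 -/- replicate 2 is the highest of its genotype for Krt77.

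Among the markers of other cell types 0 genes were called (limma) and 0 were at 0. An unadjusted p under 0.05 was reached by 3 macrophage and lymphoid, 2 skeletal muscle, 2 melanocyte and 1 infundibulum marker. The macrophage, lymphoid and muscle ones were higher and the others lower. Over all genes tested, 48.7% had a lower estimate and 4.29% were lower at that level. The share of all genes higher at that level was not counted. Basal keratinocyte markers (7 of 8 tested lower) summed to 61045 to 63153 in Get1 -/- and 61938 to 74370 in Get1 +/+ skin, and dermal fibroblast markers (4 of 7 lower) to 126569 to 147737 in Get1 -/- and 125987 to 153417 in Get1 +/+ skin. Skeletal muscle markers (0 of 8 lower) summed to 109940 to 156710 in Get1 -/- and 96025 to 141911 in Get1 +/+ skin, and macrophage and lymphoid markers (1 of 6 lower) to 9504 to 11233 in Get1 -/- and 6934 to 10246 in Get1 +/+ skin. Of the endothelial, adipocyte, melanocyte, Schwann cell and erythroid markers, 0 of 5, 1 of 3, 5 of 5, 0 of 3 and 1 of 2 were lower. The sums of each of these lists overlapped between genotypes. Their part in the keratin differences was not tested.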

How the data were processed

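Total RNA of back skin was labelled as biotin cRNA and hybridised to 6 oligonucleotide arrays. Per the labels, the authors processed the arrays with MAS5, whose version is not given. The deposited values are linear signal intensities of 45101 probe sets, 64 of them controls, with a 2% trimmed mean of 500.0 on each array and no detection calls. They were turned into log2 without further scaling. A filter on the mean log2 at the median of all non-control probe sets, equal to a signal of 137, left 22519 of 45037, and each gene was represented by its brightest kept probe set that names 1 gene (11387 genes). The platform annotation gave 1 symbol to 34945 probe sets, several to 932 and none to 9160.

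The test was limma 3.58.1 under R 4.3.3 (eBayes with trend, two-sided, Benjamini-Hochberg over all genes, threshold 0.05), tested on simulated data. The simulation drew independent normal noise for each gene, with the means and spreads of these data. It held no factor shared by the genes of an array, so it cannot show how the fit handles one. SE and 95% intervals come from that fit. Exact permutation tests used scipy 1.17.1. Gene order came from the RefSeq table of GRCm38.p6. No p of the limma fits is adjusted over a list alone, since the members and lists were chosen with earlier results of these data known. The permutation p values were adjusted over the 6 ratios. Named genes are Grhl3, the members, up to 4 genes per list with the smallest p, the members' neighbours and the 6 genes nearest Krt77. Notch1, the other Notch pathway genes and the skin markers of the sample check are additions made with their values already known. The lists covered desmosome and filament anchoring, filament bundling and early envelope, factors of suprabasal commitment, basal, stress, simple and inner root sheath keratins, and markers of other cell types.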

Additional observations from a re-analysis of the deposited data

How the results depend on the processing

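Alternatives were quantile normalization, median centring, centring on Krt1 and Krt10, no filter, a stricter filter (percentile 70), 37.6 added before log2, no variance trend, array weights, the mean of a gene's probe sets, a replicate block, leaving out any 1 array, and, added after seeing the data, the actin control split as a factor. Krt77 kept its direction in all 16 that gave it a value (-2.84 to -2.11) and its call in 8. The stricter filter removed it. It missed the threshold with quantile normalization (-2.48, adjusted p = 0.0737), no filter (-2.51, 0.0714), the actin split (-2.61, 0.0976) and 5 of the 6 fits that leave out an array, where its change ranged from -2.84 to -2.29. The causes were not tested. Without the filter 18193 genes are adjusted for, and the SE of Krt77 was 0.326 against 0.312 in the main fit. Krt23, Krt78, Krt79 and Krt80 were lower in every alternative run, Krt10 in all but the centring on itself and Krt1 (0.011), and Krt1 reversed only without Get1 -/- replicate 2 (0.0016). With an array left out, Krt1 ranged from -0.22 to 0.0016. The median over the tested keratins ranged from -0.94 to -0.53. Ratios to Krt1 and Krt10 kept their sign in all 7 alternatives run for them, but sizes moved. Krt2 was at -0.25 with 37.6 added, and Krt79 at -0.43 without Get1 +/+ replicate 3. Krt78 was at -0.18 and -0.91 without Get1 -/- replicates 1 and 2. Krt80 was at -0.88 without Get1 -/- replicate 2 and -0.87 without Get1 +/+ replicate 1. It was at -0.40 without replicate 3 of either genotype, -0.41 without Get1 -/- replicate 1 and -0.42 without Get1 +/+ replicate 2.

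The genes called were 5, and became 10 with median centring, 12 with centring on Krt1 and Krt10, 8 with array weights, 44 with the replicate block, and 3 to 122 with an array left out. The probe sets called were 6, and became 13 with median centring, 10 with centring on Krt1 and Krt10, 35 with the replicate block, and 4 to 25 with an array left out. The replicate numbers of the titles may not pair the animals. Deviations of same-numbered arrays correlated at -0.020, 0.362 and -0.025 over genes, and at 0.133, 0.26 and 0.14 over kept probe sets, where all 3 exceed 0.1. The numbers were treated as not pairing by the values over genes, a choice made with the blocked results already known. With the replicate block Krt77 (adjusted p = 0.0145) and Krt23 (-2.03, 0.0247) passed, and the other keratins did not. Signals under the filter, as for Krt2, the Get1 -/- values of Krt77 and the Get1 +/+ values 121 and 130 of Krt6b, limit what can be read from a fold.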
